A study of Xenopus laevis with 6 samples.

Results

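The control animal caps of this experiment were the 2 arrays, of 6 in all, whose caps had received only the control morpholino (Control MO). They were chosen by that label alone, and 11303 genes could be read in them. Animal caps are the ectoderm over the top of the frog blastula. Xenopus laevis eggs fertilized in vitro were injected at the 4-cell stage, with 80 ng of the morpholino going to the animal side of every cell. Caps were cut out at stage 9 and kept in culture on their own until stage 15, and the labels list no further treatment. The labels call the replicates biological, and the other 4 arrays, of caps with an ERK3 or a TFAP2A knockdown, are used only where the distance between replicates is described. Every control cap carried a morpholino, so these levels are those of injected caps.

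Animal cap cells left alone form epidermis, because BMP signals among them keep the ectoderm from becoming neural tissue. In the frog embryo this epidermis is a mucociliary epithelium. It holds goblet cells that secrete mucus, multiciliated cells that drive fluid over the surface, ionocytes that move ions and acid, and small secretory cells. Neural plate, neural crest, mesoderm and endoderm form elsewhere in the embryo under other signals.

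Signal was the intensity of a probe set, a group of short probes against 1 transcript, on a linear scale. Each gene was read by the brightest probe set that carries its symbol alone. The 2 arrays had median intensities of 24.6 and 24.1, and the log2 values of the genes correlated across the arrays with r = 0.99 over 11303 genes. Background was set by 64 probe sets for reporter genes, which frog cells lack, as their 95th percentile on each array. That level was an intensity of 10.5 on the array of replicate 1 and 11.7 on that of replicate 2. Of the 11303 genes, 8172 (72.3%) lay above background on both arrays, 2785 (24.6%) lay at background on both, and 346 (3.06%) were above it on 1 array only. At the 50th percentile of the ranking, intensity was 61.2, and at the 90th it was 602.4. The 1131 genes in the top 10% of the ranking lay above that value. Brightness depends on the probes as well as on the transcript, so each percentile below ranks signal and does not set one gene's transcript number against that of another. In a bulk cap, fewer cells of a type and less RNA in each of them cannot be told apart.

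**Figure D1:**
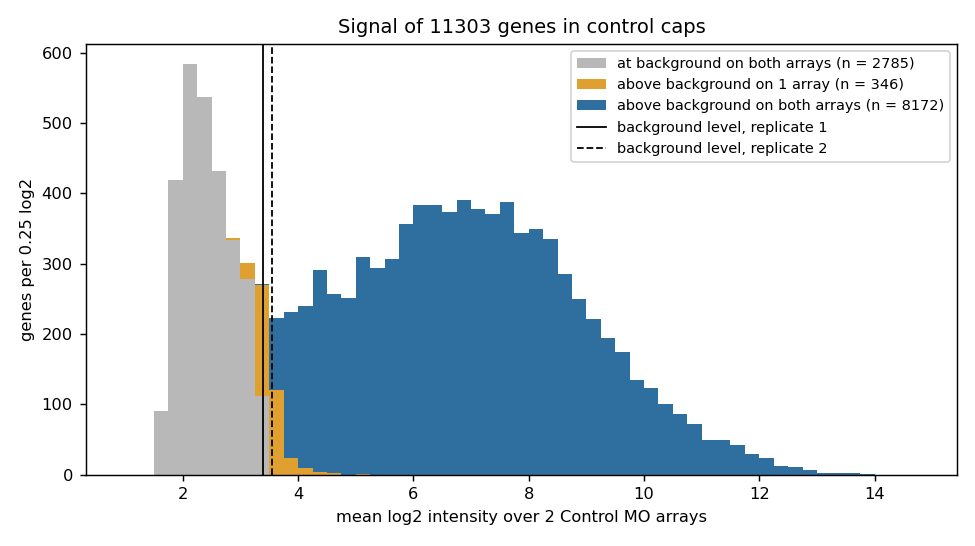
Histogram of the mean log2 intensity over both Control MO arrays for 11303 genes in steps of 0.25, with the background level of each array as a vertical line. The 2785 genes at background form a narrow peak at the left, and the 8172 genes above it spread over a broad range to the right.

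The tissue label was checked against marker genes. The 37 epidermal markers had a median percentile of 62.4, under the 70 of the neural markers given below. Above background were 21 of them, a lower share than the 72.3% of all genes. Among their 29 keratins 15 were at background. The 8 others, both copies of tp63, grhl3, tfap2a and dlx3, were all above background. All 9 markers of multiciliated cells were above it, with a median percentile of 80.1, as were 15 of 16 of ionocytes, with a median of 87.4. Most of the ionocyte set were subunits of the vacuolar proton pump, which acidifies organelles in every cell type. That set therefore does not mark ionocytes alone. Of goblet cell markers 1 of 2 was above background with a median of 51.4, and of small secretory cell markers 2 of 3 with 41.6. All 4 markers of the cement gland, the copies of ag1 and agr2, were above it, with a median of 85.5. The gene agr2 is also listed below with goblet products, so it does not mark the gland alone. Markers of other germ layers were not all dark. Of the neural ones 6 of 7 were above background with a median percentile of 70, of the mesodermal ones 5 of 7 with 34.4, of the endodermal ones 4 of 6 with 28.6, and of the blood ones 0 of 3 with 8.1. Summed intensity on the 2 arrays was 50576 and 52475 for the epidermal set, 1267 and 1426 for the neural, 228.1 and 176.7 for the mesodermal, 159.7 and 168.1 for the endodermal and 15.9 and 20.2 for the blood set. These sums differ in their number of genes and probes and so give no order among the sets. The part of any non-epidermal cells in the levels given below was not tested.

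The 20 brightest genes are described next. First in rank was sh3bp4.S, a regulator of receptor uptake, at 13504 and 14672. The symbol had another probe set at 992.8 and 1082.9, so its place rested on 1 probe set. Next came upk1a.S, a uroplakin of apical membranes, at 12292 and 12473. The gene ccdc50.L read 12911 and 11848, and aifm2.S, an oxidoreductase gene that limits lipid peroxidation in mammals, read 12537 and 11348. Among the first 20 were 2 keratins, krt70.S at 11236 and 10667 and krt7.L at 9420 and 9005. The hyaluronan synthase gene has1.S read 7838 and 7052, and odc1.L, the first enzyme of polyamine synthesis, read 10722 and 10973. On both arrays these genes stood far above the 99th percentile of all genes, 3103.6.

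The splicing factor gene srsf2.L read 8570 and 8688, and cirbp.L, an RNA-binding protein gene induced by cold in other settings, read 7898 and 7720 with its S copy at 7095 and 6872. Cytoplasmic actin actb.L stood at 7985 and 8421, and the mitochondrial ADP/ATP carrier slc25a5.L at 7510 and 7703. Histone variant gene h2az1 was there with both copies, L at 7668 and 7540, S at 6350 and 6171. The nonhistone chromatin protein genes hmgb2.L (7029 and 6999), hmgn1.S (6798 and 6595) and hmgb3.S (6295 and 6233) were lower in the group, as was ftmt.S, mitochondrial ferritin, at 6820 and 6408. The translation factor eef1a1o.S, given with the housekeeping genes, completes the 20. No ribosomal protein gene was among the 20.

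Families were then looked up after their values had been seen, and not all of them had a member among the brightest genes named above. All 5 uroplakin genes were in the top 10%, upk3a.L among them at 4217 and 4239.7. All 15 genes named srsf were above background, 12 of them in the top 10%. All 22 hnrnp genes, which package nuclear RNA, were above it as well, with 21 in the top 10%. The 11 high-mobility-group genes had a median percentile of 99.4. Tubulins were divided, with 11 of 19 above background, a lower share than the 72.3% of all genes, and 8 at it.

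Keratins, the intermediate filament proteins of epithelia, covered a wide range of signal. Of 29 keratin genes, 13 (44.8%) were above background, against 72.3% of all genes. Another 15, the dark set, were at background and 1 was above it on 1 array. Of the 13, 8 were in the top 10% and 7 in the top 1%. The brightest included krt12.5.S at 5065 and 5490, krt12.4.S at 4009 and 5014, krt12.4.L at 4359 and 4468, krt8.1.S at 3625 and 4362 and krt70.L at 3171 and 4230. The simple-epithelium gene krt18.1.L was lower, at 1258 and 1275, and krt19.L read 550.4 and 485.7. Others above background ran down to krt18.1.S, at 87.4 and 164.1, and krt17.S, at 14.7 and 22.6. The 1 above on 1 array was krt17.L, at 10 and 17.1. The dark set ran down to krt50.S, at 3.9 and 3.4. Its members read 5.7 or less on both arrays, so no gene of that set came near the background level. The median percentile of the list, 13.5, was that of krt57.L, the highest gene of the dark set.

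Transcription factors of the epidermis were high as a group. Of 33 measured genes, 29 (87.9%) were above background, against 72.3% of all genes, and 12 were in the top 10%. Their median percentile was 83.6. The highest were gata2.L (1883 and 1375) and foxi4.2.S (1585 and 1340), followed by grhl3.S, a grainyhead factor of epithelial barrier genes, at 1370 and 1368. The homeobox gene dlx3 was near them with both copies, S at 1369 and 1312, L at 1289 and 1237. The AP-2 gene tfap2a, the target of a knockdown in other caps of the study, read 1126 and 753.4 for its L copy and 718.3 and 528.2 for its S copy. The Krüppel-like gene klf17.L read 467.2 and 417.4. Lower still was tp63, which marks the basal layer, with its S copy at 98.8 and 138.3 and its L copy just over background at 15.5 and 18.3. At background were tfap2b.L (7.8 and 9.2), tfap2e.L (3.7 and 5.3) and nfe2l2.S (5.9 and 5.3).

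Cell junction genes included some of the brightest epithelial signals. Among 19 tight junction genes 15 were above background, near the 72.3% of all genes, and 10 were in the top 10%. Claudins, which seal the space between cells, led them. The gene cldn4.L read 4292 and 4046, cldn7.L read 2925 and 2772, and cldn6.2.L read 2803 and 2723. The claudins cldn3.L (3.4 and 4.0) and cldn5.L (3.6 and 3.5) were at background, and the other 8 claudin genes were above it. The scaffold gene tjp1.S, at 9.8 and 8.6, was under the background level on both arrays.

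Adherens junction genes were above background without exception, 17 of 17, against 72.3% of all genes. Beta-catenin led, with ctnnb1.L at 3652 and 3328 and ctnnb1.S at 2441 and 2203. Plakoglobin, jup.L, read 2149 and 2386. Cadherins of 3 types were read by different probe sets, so their signals give no order of their transcripts. The gene of C-cadherin, cdh3, which holds early frog embryos together, read 2462 and 1968 for cdh3.L and 837.6 and 578.1 for cdh3.S. That of E-cadherin, cdh1.S, read 243 and 216, and those of N-cadherin, cdh2.L and cdh2.S, read 28.4 and 47.7, and 13.6 and 25. The surface adhesion gene epcam, looked up after its values were seen, was at 3610 and 3860 for epcam.S and 2572 and 2980 for epcam.L.

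Desmosome and polarity genes were measured at lower signal. Of 12 desmosome and hemidesmosome genes 10 were above background, against 72.3% of all genes. The plakin gene evpl.L read 887.9 and 852.5, and the plakin gene ppl.L read 617.9 and 760.4. The desmosomal cadherin dsc3.S was at background at 5.6 and 5.5. Among 17 polarity genes 16 were above background and none was in the top 10%. The highest was lin7c.L at 485.4 and 583.3, and the basolateral gene llgl2.L read 304.8 and 234.9.

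**Figure D2:**
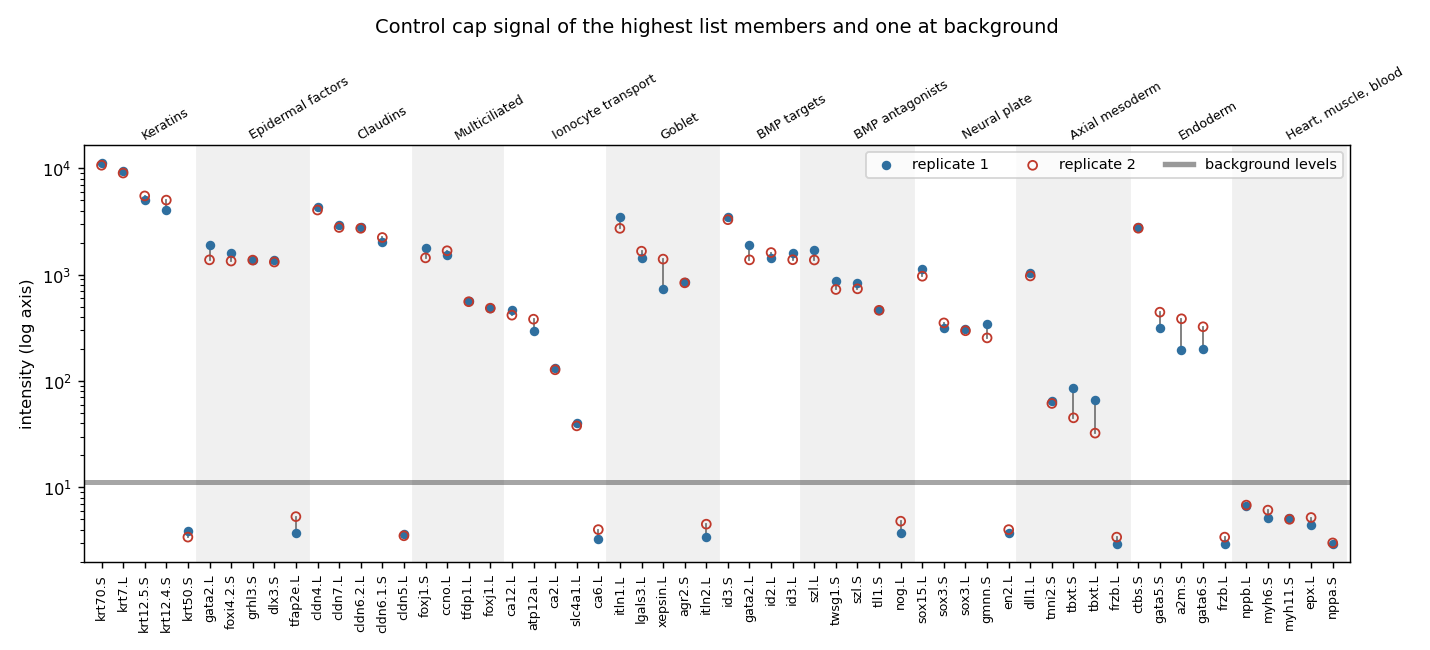
Intensity on a log axis of the 4 highest members of 12 roles and, where one was at background, the lowest, with filled points for replicate 1, open points for replicate 2 and a grey band over the background levels of both arrays. The highest keratins, claudins and BMP targets lie near the top, and all 5 heart, muscle and blood genes lie under the band.

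Most genes of the multiciliated cell list had signal. Of 64 genes, 61 (95.3%) were above background on both arrays, against 72.3% of all genes, and 1 was at it. Foxj1, the regulator of motile cilia, read 1785 and 1436 for foxj1.S and 485.8 and 483.2 for foxj1.L. The gene ccno.L, needed for the massed production of centrioles, read 1529 and 1675. Upstream of both, mcidas.S stood at 338.9 and 482.3. All 11 basal body genes were above background, cetn4.L among them at 483.5 and 633.6. Whether multiciliated cells alone gave the signal of these genes was not tested.

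The axoneme list held 39 genes, 37 of them above background, against 72.3% of all genes. Its top member, the tubulin gene tubb4b.L at 6066 and 5985, encodes a protein that many cells use outside cilia. Genes with a narrower use in cilia sat in the middle of the ranking. The radial spoke gene rsph1.L read 307 and 404.4, tekt2.S, a protein of the microtubule wall, read 264.2 and 335.8, and the dynein intermediate chain dnai1.L read 105.9 and 127.2. The heavy chain dnah9.S was at background with 7.2 and 8.7. Of the 38 axoneme genes above background on at least 1 array, 29 were higher in replicate 2, against 46.7% of all genes above background on at least 1 array.

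Ionocyte genes were bright among regulators and pump subunits and sparse in the role of carbonic anhydrases and exchangers. The regulator foxi1.L read 1334 and 751.2, a wide distance between arrays. The regulator tfcp2l1.S read 681.7 and 821.5, and ubp1.L read 421.8 and 385.4. The vacuolar proton pump acidifies organelles in every cell type as well as the ionocyte surface. Of its 27 genes 25 were above background, against 72.3% of all genes, and 9 in the top 10%. The highest were atp6v0e1.L at 1364 and 1536 and atp6ap2.L at 1328 and 1478. Of 17 genes in the role of carbonic anhydrases and exchangers 6 were above background on both arrays and 9 at it. The first is a lower share than the 72.3% of all genes. That role also counts the pump gene atp12a and pvalb.S, which was at background at 3.9 on both arrays. The carbonic anhydrase ca12.L led with 467.7 and 415.4, the proton-potassium pump atp12a.L read 295.0 and 380.7, and the anion exchanger slc4a1.L read 40.5 and 37.8. Ion transport genes at background included slc26a4.1.L (4.4 and 4.3) and the chloride channel gene cftr.L (4.9 and 5.3).

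Of 19 genes of goblet and small secretory cells 13 were above background, near the 72.3% of all genes. Some goblet products were bright. The lectin gene itln1.L, a main product of goblet cells in the frog skin, read 3499 and 2720 and stood at the 99th percentile. Galectin lgals3.L read 1423 and 1659, agr2.S read 844.5 and 835.9, and the epidermal protease gene xepsin.L read 725.6 and 1398. The second intelectin, itln2.L, was at background at 3.4 and 4.5, as was xepsin.S at 5.2 on both arrays. The gene lgals9.L, at 11.5 and 7.2, was above background on 1 array only. Small secretory cells, which release serotonin, gave a mixed picture, with 5 of 8 genes above background, a lower share than that of all genes. The calpain gene capn8.1.L was in the top 10% at 807.9 and 771.4, and the vesicular monoamine transporter slc18a1.S read 159.2 and 208.7. Their regulator foxa1 read 44.1 and 63.3 for the S copy and 39.9 and 33.8 for the L copy, while the serotonin-synthesis gene tph1.L was at background at 4.6 and 4.2.

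The cement gland is the sticky organ at the front of the embryo, and 6 of its 10 genes were above background, a lower share than that of all genes. Among them were both copies of agr2, which the goblet list holds too, S at 844.5 and 835.9 and L at 389 and 543. The anterior gradient gene ag1.L read 285.2 and 519.7 and its S copy 190.6 and 196.9. The gland regulator otx2.L was far lower, at 16.2 and 49.5, and otx2.S was at background. So were both copies of crx, S at 9.9 and 9.8 and L at 6.7 and 9.3, and pitx1.L, at 8.7 and 12.4, was above background on 1 array. Of 4 hatching enzyme genes, 1 was above background on both arrays, astl2d.1.L at 267.7 and 415.9. Of the 14 genes of both glands 7 were above background, and 12 were above the 75th percentile of the reporters.

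Proteases and their inhibitors showed a few bright genes over many dark ones. Among 37 genes 21 were above background and 15 at it, the first a lower share than that of all genes. The lysosomal protease ctsb was high with both copies, L at 2180 and 2207, S at 2552 and 1724, and the membrane-anchored channel-activating protease prss8.S read 785.9 and 950.8. On the inhibitor side wfdc2.L read 2002 and 2856 and the Kunitz inhibitor spint2.L read 1815 and 2080. Matrix metalloprotease mmp2.S, at 3.0 and 3.1, and its inhibitor timp2.L, at 4.4 and 3.6, were both at background.

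Most BMP pathway genes were above background, but fewer of the ligand genes were. Of 57 genes 49 (86%) were above it, against 72.3% of all genes, and 20 were in the top 10%. Among 9 ligand genes 5 were above background, a lower share than that of all genes. They were led by bmp7.2.L at 3286 and 2298. The ventral ligand gene bmp4 read 653.3 and 702.4 for its S copy and 152.9 and 211.7 for its L copy. Both copies of bmp2 were at background, at 7.0 and 7.9 for bmp2.S and 6.9 and 7.0 for bmp2.L. All 10 genes of the receptor role were above background, acvr1.S at 498.8 and 598.1 and bmpr1a.L at 471.9 and 504.8 among them. The role also counts the decoy receptor bambi.L, its brightest gene, at 849.9 and 687.3. The Smad genes were above background too, 7 of 7 with the inhibitory smad6 and smad7 among them, and smad1.L read 1012 and 877.1.

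BMP targets were the highest of the pathway's roles. All 19 were above background and 11 in the top 10%, with a median percentile of 91.4. The inhibitor of DNA binding id3.S read 3489 and 3282 and id2.L read 1419 and 1611. The ventralizing homeobox gene ventx2.1.S read 1288 and 1320, and msx1.L read 648.9 and 731.8. Extracellular regulators were of 2 kinds. Sizzled, which slows the breakdown of Chordin and is itself a BMP target, read 1686 and 1371 for szl.L and 831.1 and 734.6 for szl.S. The ligand-binding regulator twsg1.S read 871.0 and 724.1. The antagonists made by the dorsal organizer were dark. Noggin, nog.L, read 3.7 and 4.8, follistatin, fst.L, read 6.7 on both arrays, and chordin, chrd.1.S, read 3.8 and 15.3, which placed it above background on the array of replicate 2 only.

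Of 12 Wnt ligand genes 3 were above background, a lower share than the 72.3% of all genes, and 9 were at it. The gene wnt11b.L read 313.0 and 584.1, wnt5b.S read 44.8 and 54.6, and wnt8a.L read 25.5 and 24.4. Of 16 receptor genes 12 were above background, close to the 72.3% of all genes, with fzd8.S at 763.9 and 701.1 and fzd10.S at 376.5 and 379.5. Inside the cell, csnk1a1.L, a kinase that marks beta-catenin for destruction, read 3241 and 3293. The repressor tcf7l1.L read 883.3 and 747.7, and axin1.L was at background at 4.1 and 4.4.

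Notch genes were mostly above background, 30 of 34 (88.2%) against 72.3% of all genes. The target hes4.L was the brightest, at 1125 and 1312. The ligand dll1.L came next, at 1033 and 970.5, and the receptor notch1.S read 419.0 and 498.5. Of 19 target genes 15 were above background, near the 72.3% of all genes, nrarp.S at 510.5 and 444.9 and hes5.10.L at 347.8 and 318.0 among them. All 12 genes of receptors and processing were above background, including the cutting enzyme adam10.S at 498.3 and 532.4.

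In the FGF and MAPK list 41 of 56 genes were above background, close to the 72.3% of all genes. Of 11 ligand genes 8 were at it, against 24.6% of all genes. The bright one was pdgfa.S, which draws mesoderm cells to the ectoderm in the gastrula, at 455.6 and 450.7. The receptor genes fgfr1.L (288.1 and 308.4) and fgfr4.S (265.0 and 285.5) stood above the 75th percentile, and egfr.L (6.2 and 5.4) was at background. All 9 transducer genes were above it, with map2k1.L, the kinase over ERK, at 556.0 and 438.1. Among targets and feedback genes dusp1.L read 1220 and 1155 and myc.L read 750.3 and 875.3.

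Hedgehog genes were near the bottom. Of 13 genes 2 were above background on both arrays, a lower share than the 72.3% of all genes. They were smo.L (74.6 and 84.2) and gli3.L (42.7 and 35.1), and the ligand gene shh.L read 9.5 and 18.9. Of 19 retinoid genes 12 were above background, a lower share than that of all genes, led by the receptor rarg.S at 772.1 and 586.9. The chemokine receptor cxcr4.L read 935.6 and 910.3. Its ligand gene cxcl12.L was lower in the ranking, at 91.8 and 75.8, and cxcl8.L (3.5 and 3.7) was at background.

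**Figure D3:**
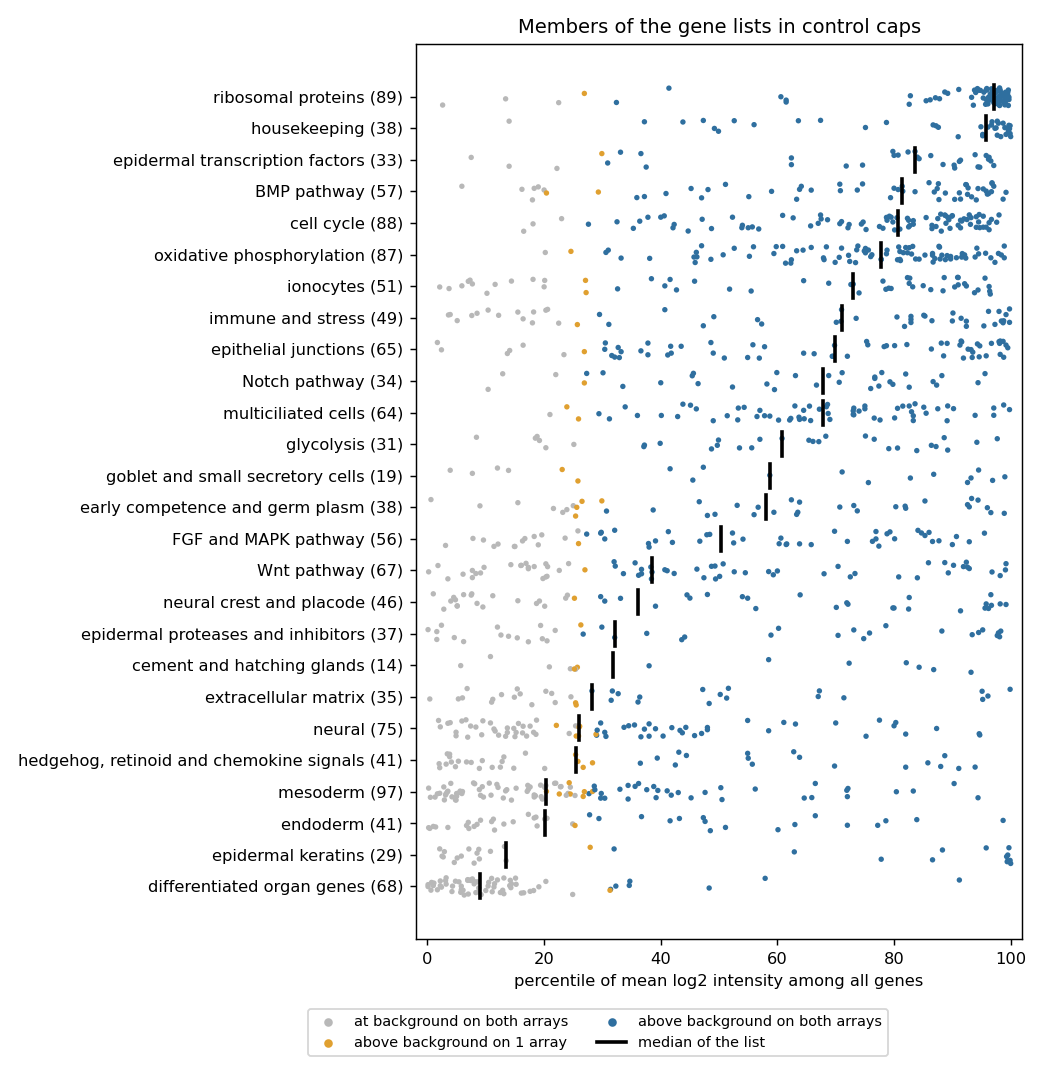
Percentile of mean log2 intensity among 11303 genes for each member of 26 gene lists, with the number of measured genes in brackets, a bar at the list's median and colours for the background call. The medians run from 97.1 for ribosomal proteins to 9 for differentiated organ genes.

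Neural genes were sparse. Of 75 genes 35 (46.7%) were above background, against 72.3% of all genes. At background were 33, and 2 were in the top 10%, with a median percentile of 26 for the list. The SoxB1 gene sox3 read 313.9 and 351.3 for its S copy and 305.3 and 296.4 for its L copy, and sox2.L read 148.7 and 202. Highest among the plate factors was sox15.L at 1118 and 964.9. Plate regulators with regional roles were dim, zic1.S at 22.3 and 43.0 and pax6.L at 17.5 and 15.2. The midbrain-hindbrain gene en2.L (3.7 and 4.0) and the hindbrain gene egr2.L (4.6 and 5.5) were at background.

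Neuronal differentiation had 12 of 30 genes above background, a lower share than that of all genes. The synaptic vesicle gene syt1.L read 883.6 and 1197, the single member in the top 10%, and neural tubulin tubb2b.S read 453.1 and 502.9. The neuronal RNA-binding gene elavl3.L was much lower, at 43.8 and 53.3. Both copies of neurog2, 8.9 and 10.7 for S and 5.4 and 5.5 for L, and tubb3.L at 5.5 on both arrays were at background.

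Of 46 crest and placode genes 26 were above background and 19 at it, the first a lower share than that of all genes. The bright members overlapped the BMP targets, since id3, msx1 and hes4 belong to this list too. The plate border gene pax3.L appeared bright, at 2392 and 2237, but its 5 probe sets did not agree. Another read 2062 and 1708, a further one read 92.2 and 96.5, and the last 2 were at background, at 5.5 and 5.9 and at 3.6 and 4.3. The S copy, pax3.S, was at background with 4.1 on both arrays. Genes of the crest proper were low, with snai2.L at 12.8 and 17.5. Foxd3.L (3.7 and 4.8), sox10.L (4.0 and 4.1) and twist1.L (5.7 and 8.3) were at background.

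Mesoderm genes were at background more often than above it, 57 of 97 against 33. Of all genes 24.6% were at background and 72.3% above it. The order in the mesoderm list rested on the background level, since 21 were above the median of all probe sets and 60 above the 75th percentile of the reporters. Axial and paraxial genes had 13 of 56 above background, a lower share than that of all genes. Brachyury, the regulator of early mesoderm, was low and uneven, tbxt.S at 85.4 and 45 and tbxt.L at 66.8 and 32.3. The muscle regulator myod1.L read 15.4 and 14.6, just over background, and muscle actin actc1.L read 16.4 and 28.7. The organizer gene goosecoid was at background with both copies, gsc.S at 4.5 on both arrays and gsc.L at 3.9 and 4.0. The 1 member of this role in the top 10%, dll1.L, is the Notch ligand already given.

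Ventral, blood and vessel genes had 20 of 41 above background, a lower share than that of all genes. The T-box gene tbx3.S read 724.8 and 529.4 and the caudal gene cdx1.S read 304.3 and 303.1. The leukocyte factor spib.S read 306.3 and 421.1 by one probe set and 5.0 and 5.6, at background, by another. The globin gene hba3.L was marginal at 13.5 and 12.2, and hba1.S (3.5 and 4.1), gata1.S (4.1 and 5.0) and tal1.S (4.7 and 4.5) were at background.

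Endoderm genes were similar in number, 17 of 41 above background and 23 at it, the first a lower share than that of all genes. The brightest, ctbs.S at 2828 and 2727, encodes a lysosomal glycosidase. GATA factors followed, gata5.S at 317.9 and 443.1 and gata6.S at 199.9 and 323.1. The gene sox17a.L, a regulator of endoderm, was marginal at 10.5 and 15.8. Nodal1.L (5.2 and 5.5), mixer.S (7.7 and 7.2) and hnf4a.S (4.6 and 4.7) were at background.

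Genes of differentiated organs were the darkest list, with 60 of 68 at background, against 24.6% of all genes. All 13 heart, muscle and blood genes were at it, the highest being nppb.L at 6.6 and 6.8. Of 31 liver, pancreas and gut genes 5 were above background, ambp.L the highest at 91.1 and 93.0. Among 24 eye and brain genes 2 were above background. One of them, rpe65.S, a retinoid isomerase of the eye, stood at 621.2 and 741.7 in the top 10%, while rpe65.L was at 5.5 and 5.2. The symbol rpe65.S had 1 probe set, and whether its probes report that transcript was not tested. Of the 68 organ genes 7 were above background, against 3 above the median of all probe sets and 16 above the 75th percentile of the reporters.

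Ribosomal proteins formed the highest list. Of 89 genes 85 (95.5%) were above background, against 72.3% of all genes, and 72 in the top 10%, with a median percentile of 97.1. The small-subunit gene rps2.L read 5174 and 5229 and the large-subunit gene rpl27.S read 3656 and 3881. The 3 at background included rpl19-b, at 3.7 and 3.8. Housekeeping genes gave 37 of 38 above background. The translation factor eef1a1o.S read 7784 and 7527 and cytoplasmic actin actg1.L read 5558 and 6120.

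The lists of oxidative phosphorylation and glycolysis genes differ in size, so their counts are read against all genes and not against each other. Of 87 respiratory genes 85 (97.7%) were above background, against 72.3% of all genes. In the top 10% were 15, a higher share than that of all genes. Their median percentile was 77.8, and the ATP synthase gene atp5f1b.S read 2887 and 3004. Of 31 glycolysis genes 25 (80.6%) were above background, against 72.3% of all genes. In the top 10% were 2, a lower share than that of all genes, and the median percentile was 60.8. The highest of these was the lactate carrier slc16a3.L at 2186 and 1747, and the top enzyme, ldhb.S, read 915.2 and 1003.

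Cell cycle genes were almost all above background, 85 of 88 (96.6%) against 72.3% of all genes, with 22 in the top 10%. The list also counts genes that hold the cycle back. Of these gadd45a.S read 1752 and 2049, cdkn1a.L read 40.6 and 35.2, and cdkn1b.S was at background at 8.5 and 9.6. The replication helicase gene mcm7.L read 2101 and 2196, the mitotic cyclin ccnb1.2.S read 1534 and 1425, and the S-phase cyclin ccna2.L read 1646 and 1156. Cyclin D2 was dimmer, ccnd2.S at 85.5 and 73.8 and ccnd2.L at 50.4 and 39.4, and a probe set whose symbol has no copy letter was at background at 6.2 and 6.1. Of 29 chaperone genes 24 were above background, against 72.3% of all genes, and hspa8.L, the constitutive HSP70 gene, read 6568 and 5735. Of 20 innate immune genes 10 were above it, a lower share than that of all genes. The gene nfkbia.L read 375.9 and 439.8, and il1b.S (3.7 and 4.0) was at background.

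Early competence factors had strong signal at stage 15. The POU factor genes of the pluripotent blastula read 3050 and 2866 for pou5f3.1.L and 1650 and 1296 for pou5f3.2.L, whereas pou5f3.3.L, which is supplied by the egg, was low at 19.1 and 14.2. Of 23 competence genes 20 were above background, against 72.3% of all genes. Germ plasm genes had 7 of 15 above it, a lower share than that of all genes. The helicase gene ddx4.L led at 694.7 and 895.7, and germes.L was at background at 3.2 and 3.3.

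The matrix list had 18 of 35 genes (51.4%) above background, against 72.3% of all genes. Besides has1.S, integrin beta 1 was high, itgb1.S at 1174 and 1514 and itgb1.L at 1216 and 1052, as was fibronectin, fn1.S, at 1106 and 1116. Collagens of connective tissue were dark or marginal. The gene col2a1.L read 3.4 and 3.0, col1a1.S read 7.4 and 9.3, and col1a2.L read 22.1 and 28.7.

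Xenopus laevis keeps many genes as an L and an S copy (homeologues), read by different probe sets. Among 2011 pairs, both copies were above background in 1369 (68.1%) and both at it in 292 (14.5%). In 245 pairs (12.2%) 1 copy was above and the other at background, the L copy above in 150 and the S copy in 95. The widest such pair was sult6b1.5, a sulfotransferase, with L at 982.3 and 1101 and S at 3.5 and 3.4. The RNA-binding protein gene rbm42.L read 644.7 and 633.9 against 3.7 and 4.4 for rbm42.S. The Wnt receptor fzd8 went the other way, with S at 763.9 and 701.1 and L at 4.6 and 4.5. The zinc finger gene sall2.L read 747.6 and 770.9 against 3.6 and 3.4 for sall2.S, yet other sall2.L probe sets read 7.8 and 10 and 3.4 and 3.3. A copy at background may thus be a copy or a probe set that is dark, and the files do not separate these.

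Probe sets of the same gene often differed in this way. For 2702 genes with more than 1 probe set, the median distance between the brightest and the dimmest was 1.45 on the log2 scale. In 1687 (62.4%) it was over 2-fold, and in 554 (20.5%) one probe set was above and another at background. The genes aifm2.S and krt7.L are examples from the very top. The dimmest of the 4 probe sets of aifm2.S read 14.2 and 11.9. For krt7.L the dimmest of 5 read 50.6 and 51.6. Of the 32539 probe sets 16980 carried no single symbol, and 8963 of those (52.8%) were above background and went unnamed here.

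The 2 control arrays differed little for most genes. Among 8518 genes above background on at least 1 array, the median size of the log2 difference was 0.20, the 95th percentile 0.81 and the 99th 1.40. More than 2-fold apart were 233 genes (2.74%), 117 of them (1.37%) higher in replicate 1 and 116 (1.36%) higher in replicate 2. In the ERK3 and TFAP2A pairs of arrays 279 and 200 of the same genes were that far apart. The 3′ minus 5′ log2 signal of control probe sets depends on the probes as well as on RNA quality. It was 1.1 and 0.96 for GAPDH, 11.04 and 10.97 for actin and -1.1 and -1.02 for the elongation factor EF1A. The actin value is therefore not read here as a measure of RNA quality alone. Each gene's value differed far less between the arrays than from gene to gene. The part of RNA quality in the differences described next was not tested.

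**Figure D4:**
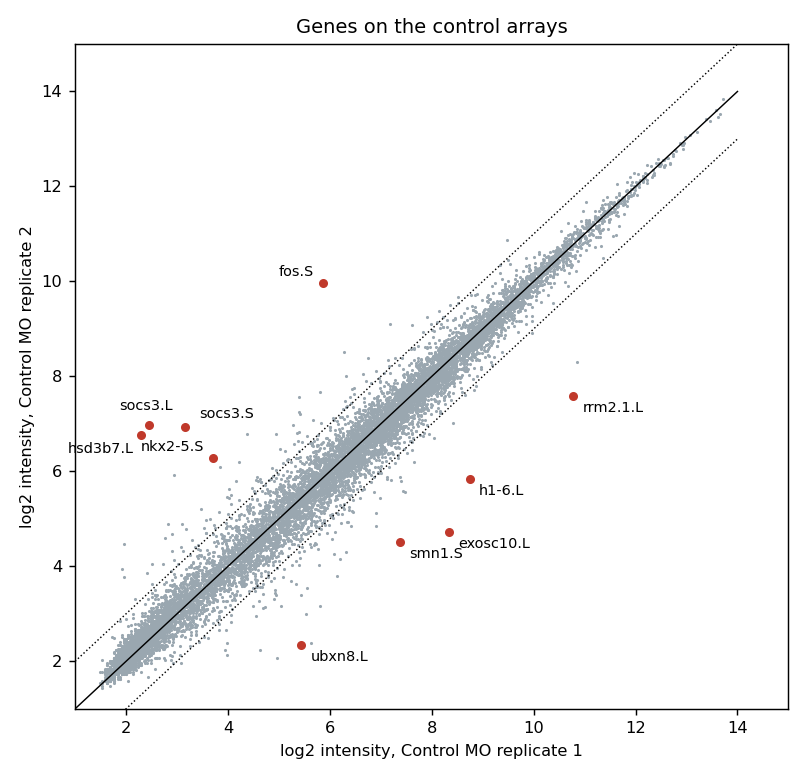
Log2 intensity of 11303 genes on the array of Control MO replicate 1 (x axis) and replicate 2 (y axis), with a line of equality, dotted lines at 2-fold and the 5 widest genes in each direction named. Most points hug the diagonal, and fos.S and rrm2.1.L stand well off it at high signal.

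The genes highest in replicate 2 included products of the immediate early response, which cells switch on within minutes of a stimulus. The AP-1 gene fos.S read 58.3 and 999.1. The cytokine-signalling inhibitor socs3 was apart with both copies, L at 5.5 and 126.6, S at 8.9 and 122.2. The heart homeobox gene nkx2-5.S read 13.1 and 77.4. In the list of FGF and MAPK targets and feedback genes, 6 of 23 above background were over 2-fold higher in replicate 2 and 0 in replicate 1, against 1.36% and 1.37% of all genes. Beside fos.S these were junb.L (145 and 551.2), junb.S (38.9 and 125.1), ier2.L (281.8 and 661.2), dusp6.S (89.3 and 214.6) and dusp1.S (23.9 and 59.0). The other copies of ier2, dusp6 and dusp1 were less than 2-fold apart, ier2.S at 243.2 and 255.6, dusp6.L at 91.3 and 137.3 and dusp1.L at 1220 and 1155. The orphan receptor gene nr4a1, looked up after its values were seen, read 20.7 and 111 for its S copy and 14.3 and 68.7 for its L copy. Both copies of 4 genes, socs3, nr4a1, junb and nkx2-3, were over 2-fold higher in replicate 2, of 1442 pairs present, and no pair was so in replicate 1. For the copies over 2-fold apart, a level in control caps therefore depends on which of the 2 arrays is read.

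Among the genes highest in replicate 1 were exosc10.L, an RNA exosome subunit, at 323.7 and 26.4, and rrm2.1.L, a subunit of the enzyme that makes DNA precursors, at 1758 and 193.3. The linker histone gene h1-6.L read 430.5 and 57.6, and smn1.S, needed to assemble splicing particles, read 166.6 and 22.8. Lower in signal, ubxn8.L read 43.4 and 5.1.

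The other groups allowed these differences to be looked up in arrays of the same replicate numbers. As replicate 1 minus replicate 2 on the log2 scale, rrm2.1.L differed by 3.18 in control caps, 2.59 in the ERK3 pair and 3.16 in the TFAP2A pair. The bile acid enzyme gene hsd3b7.L differed by -4.46, -3.49 and -4.16 in the same order. These genes followed the replicate number in each group. By contrast socs3.L differed by -4.53 in control caps and by -0.98 and 0.75 in the others, and fos.S by -4.10, -1 and -0.49. For ier2.L the differences in the ERK3 and TFAP2A pairs were -0.64 and 0.01, and for junb.L -1.48 and 0.10. Of the 117 genes higher in replicate 1 of the controls, 110 (94%) had the same direction in both other pairs, and of the 116 higher in replicate 2, 95 (81.9%) did. Over all 8518 genes the direction was shared by all 3 pairs in 4483 (52.6%). The median size of the difference in control caps was 0.20 over those genes. Their share is therefore not a like base for genes over 2-fold apart. The pairing by replicate number was taken from these same differences, so a shared direction does not test it. The labels do not say what a replicate number stands for, such as a clutch of eggs or a day, so these cannot be told apart. They name 1 version of the labelling kit for all 6 arrays, the design text names another, and neither ties a kit to a replicate number.

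**Figure D5:**
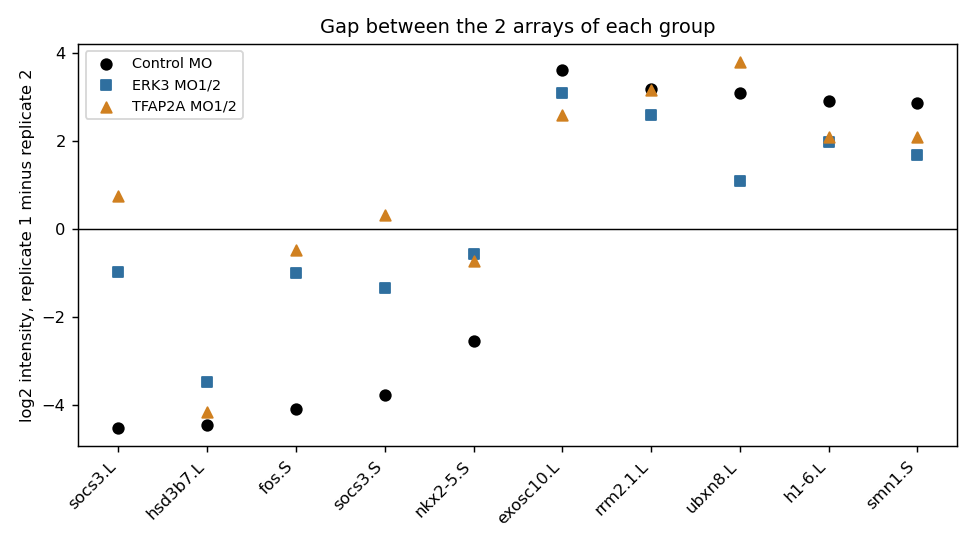
Log2 intensity of replicate 1 minus replicate 2 in the Control MO, ERK3 MO1/2 and TFAP2A MO1/2 pairs of arrays, for the 10 genes with the widest difference in the control pair. The 5 genes at the right lie above 0 in all 3 groups, whereas socs3.L and socs3.S lie far below 0 in control caps and near or above it in the TFAP2A pair.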

How the data were processed

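Intensity values per probe set were deposited for the GeneChip array of Xenopus laevis, version 2.0. Per the series' design text, the authors read scans with GeneChip Operating Software 1.4 and ran RMA (robust multiarray averaging) in Expression Console. Its version was not given in the sources used here. The averaging aligns all arrays by quantiles, so a level is relative to the whole array. Arrays have no read depth, and 2 per group limits the precision.

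Of 32635 probe sets 96 manufacturer controls were left out. A platform annotation of 2016 gave 15495 probe sets 1 symbol, 279 several and 16765 none. Entrez identifiers of 15384 matched the RefSeq table of assembly Xenopus_laevis v10.1, used for names only, which updated 2 symbols. Each gene took its brightest probe set, and log2 values were averaged over both control arrays with no added constant, in Python 3.11.15 with numpy 2.4.6 and pandas 2.3.3. There is 1 group, so nothing was tested and no p-values are given. The counting steps were tested on simulated data.

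The control caps and the gene lists were chosen with earlier results of these data known. The rule for naming genes took the 20 brightest, the 4 highest of each role and its lowest at background, the 5 widest differences in each direction, and the 5 most unequal homeologue pairs that split at background. The text gives part of those that the roles added. Other genes were added after their values were seen, as examples of a list or marker set. The name pattern for keratins first took 2 keratinocyte-associated protein genes, which were left out. The replicate numbers were taken as pairing the arrays, since the differences between replicates correlated across genes in every pair of groups (r = 0.61, 0.59 and 0.66).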

Additional observations from a re-analysis of the deposited data

How the results depend on the processing

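No paired analysis was possible because the control caps are 1 group and no test was run. The background level decided most. With the highest reporter probe set as the level, 6 genes, 2 list members, 0 homeologue pairs with both copies and 3 split pairs were counted, since that probe set reads cre, which is also a hybridization control. With the second highest, chosen after seeing the data, 7578 genes and 819 list members were above background, against 8172 and 864. The 75th percentile of the reporters gave 9507 genes, with 60 in place of 33 in the mesoderm list, and the median of all probe sets 7056. At that median the mesoderm list fell from 33 to 21 and the organ list from 7 to 3. Leaving out a replicate gave 8281 to 8410 genes, 881 to 890 list members, 1383 to 1428 pairs with both copies and 281 to 311 split pairs. Averaging the probe sets of a gene gave 8018 genes, and 87 of 290 named levels moved by more than the spread between arrays. Probe sets without a shared-target suffix gave 7639 genes, and the difference of ubxn8.L fell to 0.86 from 3.09. Under that setting 36 named levels moved and 222 did not. Ranked among all probe sets in place of genes, 259 named percentiles moved and 31 did not, so each percentile holds only for the ranking of genes. Quantile normalization of both arrays gave 8174 genes. No named difference turned its direction under these settings. Signal near the background level, as in myod1.L or sox17a.L, limits what a call above it can show.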
